A study of Anas platyrhynchos with 6 samples.

Results

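The 100 most abundant protein-coding transcripts of the duck ovary were described in laying ducks. They were chosen from 41952 RefSeq transcripts, of which 30690 have coding accessions (XM and NM). Coding transcripts with a mean above 100 FPKM over all 6 libraries were ranked by that mean and the first 100 were kept. The tables name no unit and their values were read as FPKM, fragments per transcript length and library size. Setting levels of different transcripts side by side, as the ranking does, rests on that reading. In all 953 coding transcripts could have been taken. A further 3 are left out by the rule, and 1 of these would have ranked among the 100. The choice used the mean of all libraries and not the difference between the groups, but the levels themselves are what chose the members and are given as a description.

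The ovaries came from 340-day-old Jinding ducks (Anas platyrhynchos), a breed kept for its eggs, which belonged to a half-sib family. The high-laying group had laying rates above 99% and the low-laying group rates below 85%. Each group had 3 libraries, named here high 1 to 3 and low 1 to 3, made from polyadenylated RNA of ovary tissue. The labels do not say which follicles a sample held or whether each library was a separate duck. Errors and p-values therefore rest on the spread between these libraries. Those of limma, the test used, also draw on the spread of all tested transcripts. The question of the design is how the ovaries of the groups differ.

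Transcripts at the top of a tissue's abundance list are mostly those of the general machinery of cells, above all ribosomal proteins and translation factors, together with the main products of the tissue. A laying ovary holds oocytes with their granulosa and theca layers at many stages of growth, set in a stroma of fibroblasts, smooth muscle, vessels and blood cells. Ribosomal protein transcripts of vertebrates share a pyrimidine-rich start through which their translation is regulated together. A gene symbol could be matched to 10 of the 100 members, and the other 90 are given by their RefSeq accession, with no name or role assigned.

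The tissue label was checked with defining genes of follicles. The follicle-stimulating hormone receptor FSHR lay between 12.8 and 18.6 FPKM, aromatase CYP19A1 between 12.8 and 40.8 FPKM, and the oocyte growth factor GDF9 between 49.4 and 83.8 FPKM in all libraries. Low 3 stood apart from low 1 and low 2 for most of the members, so the main differences are also given without it. No read depth is known, since the files hold no counts. The sum of all values was 622708 to 639135 FPKM in high libraries and 569606 to 605510 FPKM in low libraries.

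The members held 24.9% of all FPKM in the high ovaries, with little spread between libraries, and a smaller and more variable share in the low ovaries. Their share of the summed FPKM was 24.8%, 25.7% and 24.1% in high 1 to 3, against 18.3%, 20.1% and 26.6% in low 1 to 3. The high libraries lay between the low libraries, with low 3 above and low 1 and low 2 below them. Group means were 24.9% ± 0.800 in high and 21.7% ± 4.33 in low ovaries (SD, n = 3 each). Without low 3 the high mean was 24.9% and the low mean was 19.3%, with the members ranked again. No test is given for the share, because the members were chosen from these values.

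The sum over the members and the sum over all other transcripts did not follow the same order. The members summed to 154347, 164004 and 154260 FPKM in high 1 to 3, against 108573, 114704 and 160764 FPKM in low 1 to 3. All other transcripts summed to 468361, 473482 and 484875 FPKM in high 1 to 3, against 484785, 454903 and 444746 FPKM in low 1 to 3. Low 1 thus had the smallest sum of members and, outside them, a sum close to the highest. The next 853 coding transcripts above 100 FPKM showed no such split, at 27.9%, 27.6% and 28.1% of the sum in high 1 to 3 against 28.4%, 27.7% and 26.9% in low 1 to 3.

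Abundance was concentrated to a different degree in the same libraries. The number of transcripts that together held 50% of the summed FPKM was 725, 693 and 761 in high 1 to 3, against 1045, 1002 and 648 in low 1 to 3. The 10 leading members alone held 6.86%, 6.72% and 6.77% in high 1 to 3, against 5.10%, 5.31% and 7.27% in low 1 to 3. Among coding transcripts less the 3 left out, 75 members ranked 100 or better in every library. The choice by the mean of these same libraries favours such ranks. Of each library's own 100 leading transcripts, counted among the same coding transcripts, 94, 96 and 95 were members in high 1 to 3, against 86, 91 and 93 in low 1 to 3.

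**Figure D1:**
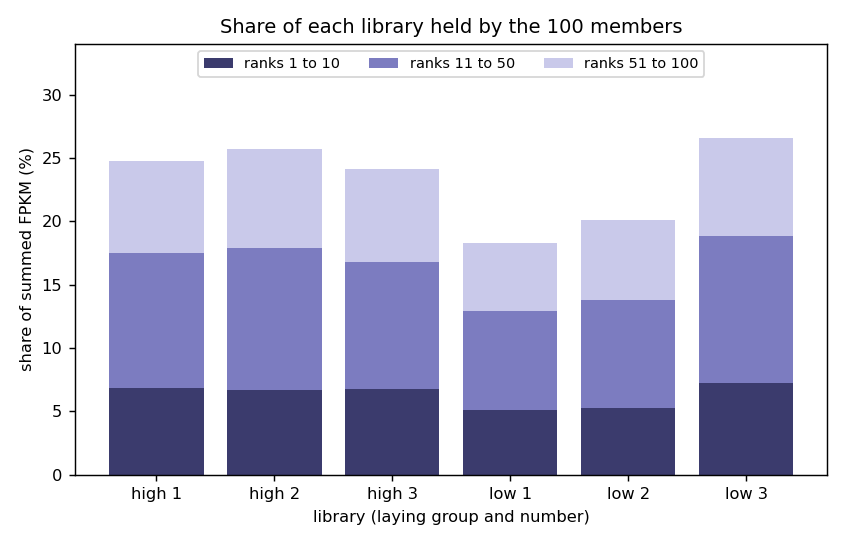
Share of the summed FPKM of each library (vertical axis, %) held by the 100 members, divided by rank into 1 to 10, 11 to 50 and 51 to 100, for high 1 to 3 and low 1 to 3 (1 bar a library). The high bars end between 24.1% and 25.7%, low 1 and low 2 end at 18.3% and 20.1%, and low 3 ends at 26.6%.

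Ribosomal proteins made up 5 of the 10 members with a symbol, and in each the mean was higher in high than in low ovaries without passing the test. RPS29, a small protein of the 40S subunit, ranked 3 among all members, at 4731, 5967 and 5249 FPKM in high 1 to 3, against 3263, 3338 and 5047 FPKM in low 1 to 3. RPS7, also of the 40S subunit, was at 2339, 2439 and 2050 FPKM in high 1 to 3, against 1283, 1372 and 2400 FPKM in low 1 to 3. In both transcripts low 1 and low 2 were below every high library, while low 3 was among the high libraries. RPL7 of the 60S subunit was at 1927, 2011 and 1697 FPKM in high 1 to 3, against 1218, 1252 and 1598 FPKM in low 1 to 3. It was the only member with a symbol whose groups did not overlap. RPL17, at the exit of the 60S peptide tunnel, was at 954, 1175 and 924 FPKM in high 1 to 3, against 563, 803 and 1002 FPKM in low 1 to 3. RPL15, a core protein of the 60S subunit, was at 914, 1013 and 919 FPKM in high 1 to 3, against 623, 634 and 1089 FPKM in low 1 to 3, where low 3 was the highest of all 6 libraries.

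In limma's test over all tested transcripts the log2 difference, high minus low, of these ribosomal members was between 0.33 (RPL15, SE 0.26) and 0.49 (RPS7, SE 0.30). RPL7 had the smallest error, with a log2 difference of 0.48 and a 95% interval of -0.047 to 1.0. None passed, with a limma adjusted p of 0.9998 for each. The sign stayed above 0 under every scaling tried and with any 1 library left out, but the size did not hold. Without low 3 the log2 difference was 0.68 for RPS29, 0.77 for RPS7, 0.60 for RPL7 and 0.59 for both RPL17 and RPL15. Without low 1 it was 0.17 for RPL17 and 0.19 for RPL15, and without low 2 it was 0.20 for RPL15. Scaling each library by the members' own sum sets their total equal in all libraries, so a shift that they share is removed by construction. Scaled so, the log2 difference lay between 0.0070 (RPL15) and 0.17 (RPS7), and under quantile normalization between 0.020 (RPL15) and 0.21 (RPS7). Summed, the 5 took 1.81% ± 0.150 of all FPKM in high and 1.44% ± 0.354 in low ovaries (SD, n = 3 each). Of 87 ribosomal protein genes listed, 6 had a matched name and 5 were tested, the same 5 that are members. The list thus holds no further tested gene, and ribosomal proteins among the 90 unnamed members were not counted.

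EIF4A2, an RNA helicase that unwinds the start of messenger RNA for the ribosome, was at 1743, 1825 and 1636 FPKM in high 1 to 3, against 1365, 1225 and 1745 FPKM in low 1 to 3. Its log2 difference was 0.28 (SE 0.23, limma adjusted p = 0.9998) and was 0.42 without low 3 and 0.17 without low 2. It turned to -0.080 under quantile normalization and to -0.043 when each library was scaled by the members' own sum. Of 44 listed translation genes 3 were tested. The other two were minor, with EIF1B at 27.3 ± 0.254 in high and 28.4 ± 6.83 FPKM in low ovaries and EEF1A2 at 5.37 ± 2.86 in high and 6.27 ± 7.13 FPKM in low ovaries (SD, n = 3 each).

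OAZ1, the antizyme that sends ornithine decarboxylase to the proteasome and so limits polyamine synthesis, was at 812, 947 and 794 FPKM in high 1 to 3, against 742, 668 and 873 FPKM in low 1 to 3. Its 95% interval, from -0.29 to 0.62 on the log2 scale, leaves out a doubling in either direction. The log2 difference was 0.17, against 0.27 without low 3, 0.086 without high 2 and 0.076 without low 2, and it was -0.16 both under quantile normalization and when scaled by the members' sum.

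ACTA2, the actin of smooth muscle and of the theca externa, differed from the members above. It was at 1794, 1794 and 1427 FPKM in high 1 to 3, against 1154, 2147 and 2510 FPKM in low 1 to 3. Low 1 was the lowest and low 2 and low 3 the highest, so the low group spanned the high one. The log2 difference was -0.15 (95% interval -0.92 to 0.63), and it was 0.078 without low 3. The other 2 tested smooth muscle markers, CALD1 and SYNPO2, also had means that were lower in high ovaries. CALD1 averaged 80.8 ± 13.1 FPKM in high and 84.8 ± 16.7 FPKM in low ovaries (SD, n = 3 each). SYNPO2 averaged 75.8 ± 19.8 FPKM in high and 90.1 ± 43.9 FPKM in low ovaries (SD, n = 3 each). Low 1 to 3 were at 65.7, 92.9 and 96.0 FPKM for CALD1 and at 61.1, 68.6 and 141 FPKM for SYNPO2. In both, low 3 was the highest low library, and without it the low mean was not above the high mean. In whole tissue, fewer cells of a type and less RNA per cell cannot be told apart. IGFBP7, a secreted binding protein of vessels and stroma, was at 1009, 1107 and 1011 FPKM in high 1 to 3, against 765, 945 and 1053 FPKM in low 1 to 3, a log2 difference of 0.19 (SE 0.20) that was 0.29 without low 3 and 0.062 without low 1. Its sign turned under quantile normalization, at -0.16, and under scaling by the members' sum, at -0.13.

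**Figure D2:**
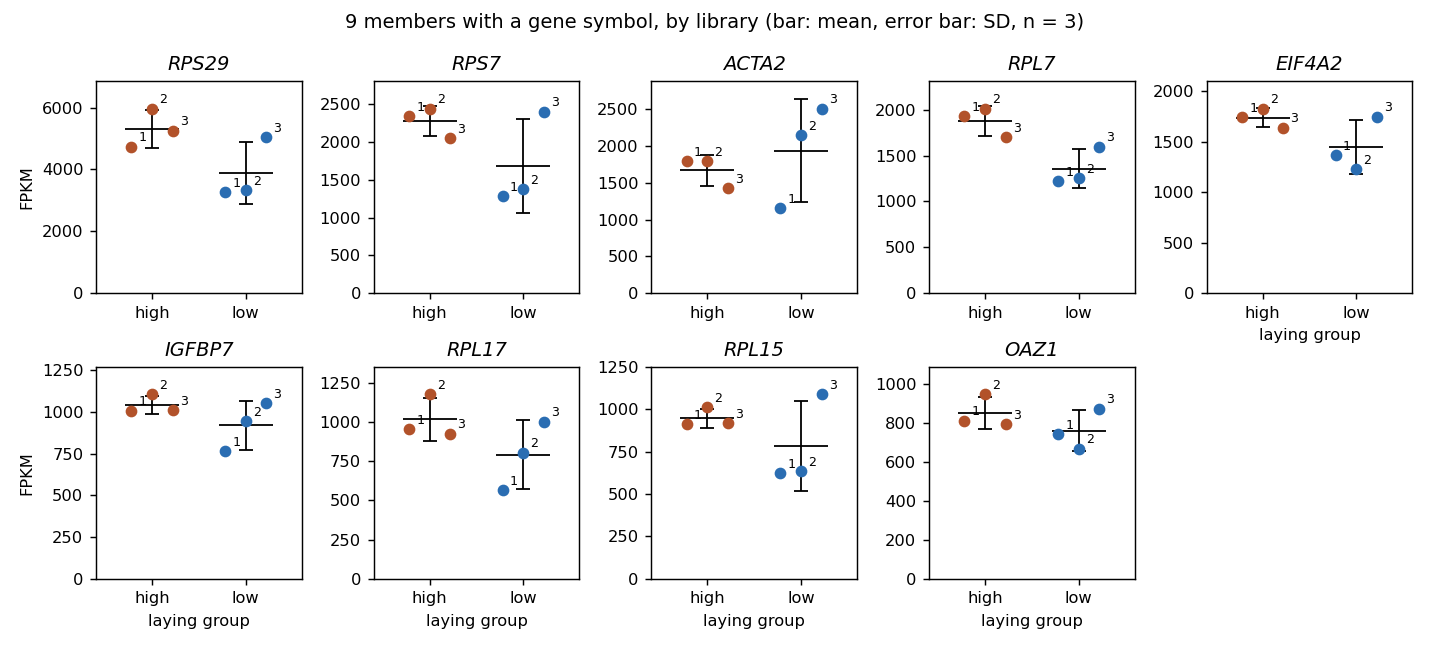
FPKM (vertical axis, from 0, a separate scale in each panel) of 9 members with a gene symbol in high and low ovaries, with 1 point per library numbered 1 to 3, a bar at the mean and error bars of 1 SD (n = 3). Low 1 and low 2 lie below the high libraries in every panel but that of ACTA2, and low 3 lies below them in RPL7 alone.

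The unnamed leaders of the list showed the same range of behaviour. XM_005024259.2 ranked 1 in every library, at 9453, 7850 and 7489 FPKM in high 1 to 3, against 5128, 4940 and 8451 FPKM in low 1 to 3. XM_005009711.2 ranked 2 in every library, at 5818, 6490 and 5680 FPKM in high 1 to 3, against 4412, 4281 and 6710 FPKM in low 1 to 3. In both, low 1 and low 2 were below all high libraries and low 3 was not. The log2 difference of XM_005009711.2 was 0.25, against 0.46 without low 3 and 0.14 at the least with 1 library left out, and it turned to -0.068 under scaling by the members' sum.

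XM_005018471.2, XM_005025999.2 and XM_005010530.2, at ranks 7, 8 and 10, repeated that order. XM_005018471.2 was at 3766, 3684 and 3003 FPKM in high 1 to 3, against 2143, 2013 and 3772 FPKM in low 1 to 3. XM_005025999.2 was at 3167, 3461 and 3098 FPKM in high 1 to 3, against 1651, 1919 and 3765 FPKM in low 1 to 3. XM_005010530.2 was at 2694, 2919 and 2499 FPKM in high 1 to 3, against 1460, 1525 and 2773 FPKM in low 1 to 3. Low 3 was the highest low library in each of them and stood above all high libraries in XM_005018471.2 and XM_005025999.2.

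The leaders at ranks 4, 5 and 6 did not follow it. XM_005009561.2, at rank 4, was at 2783, 4641 and 5473 FPKM in high 1 to 3, against 3207, 3920 and 4772 FPKM in low 1 to 3, with the high libraries the more scattered. XM_005020122.2, at rank 6, was at 2883, 3291 and 3142 FPKM in high 1 to 3, against 2435, 3424 and 3938 FPKM in low 1 to 3, a log2 difference of -0.046 (SE 0.29) that was 0.10 without low 3. XM_005031463.2, at rank 5, was at 4555, 1343 and 4638 FPKM in high 1 to 3, against 3199, 3351 and 2116 FPKM in low 1 to 3, with high 2 the lowest of all.

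The low value of XM_005031463.2 in high 2 was matched by 1 other member. XM_005031167.2 was at 2102, 629 and 2180 FPKM in high 1 to 3, against 1535, 1856 and 1332 FPKM in low 1 to 3. The ratio of XM_005031463.2 to XM_005031167.2 was 2.17, 2.13 and 2.13 in high 1 to 3, against 2.08, 1.81 and 1.59 in low 1 to 3, so both were low in high 2 in nearly equal proportion. They had the largest spread of all members within the high group, with an SD of log2(FPKM + 1) of 1.02 each. Their log2 differences between the groups were 0.11 (95% interval -1.09 to 1.31) and -0.13 (-1.25 to 0.99), or -0.10 and -0.25 without low 3. For XM_005031167.2 the means differed the other way, at 1637 ± 874 FPKM in high and 1574 ± 264 FPKM in low ovaries (SD, n = 3 each). Whether the pair share reads was not tested.

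Between the laying groups 0 of the 100 members passed limma's test, where 1 of 19790 tested transcripts did, or 0.00505%. All 100 members were tested. The limma adjusted p was 0.9998 for each of them. At an unadjusted limma p under 0.05 there were 6 members, all 6 higher in high ovaries, against 1.69% of tested transcripts in that direction and 3.51% in either. The log2 difference was above 0 for 94 members and below 0 for 6. It was above 0 for 77.3% of the next 853 coding transcripts above 100 FPKM and for 49.5% of all tested transcripts. Its median was 0.40 over the members, 0.12 over the next 853 coding transcripts above 100 FPKM and -0.0028 over all tested transcripts. The members' values move together within a library, so these counts are not 100 independent observations.

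The size of this shift depended on scaling and on low 3. With each library scaled to the same sum, as in TPM, the members' median was 0.30, with all transcripts at -0.095. Under quantile normalization, which gives every library the same distribution and so the same summed top, it was 0.093, with 70 members above 0. Without low 3 the members' median was 0.61, and without low 1 it was 0.27. Without low 3, 65 members had an unadjusted limma p under 0.05 and a value higher in high ovaries, against 3.32% of all tested transcripts, but the smallest limma adjusted p among the members was 0.54. Low 3 was set aside because the members' own values stood apart in it, so this count follows from that choice. In either direction the count was 1, 0 and 0 without high 1, high 2 and high 3. It was 5 without low 1 and 0 without low 2. When limma weighted the libraries by how well each one followed the model, 58 members were called, 57 of them higher in high ovaries, against 11.6% of all tested transcripts; low 2 then held 97.1% of the low group's weight, so the low group was close to 1 library. The 95% interval without weights included 0 for 94 members, and for 49 it lay within a doubling in either direction. For the other 51 a doubling in at least 1 direction is not left out.

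**Figure D3:**
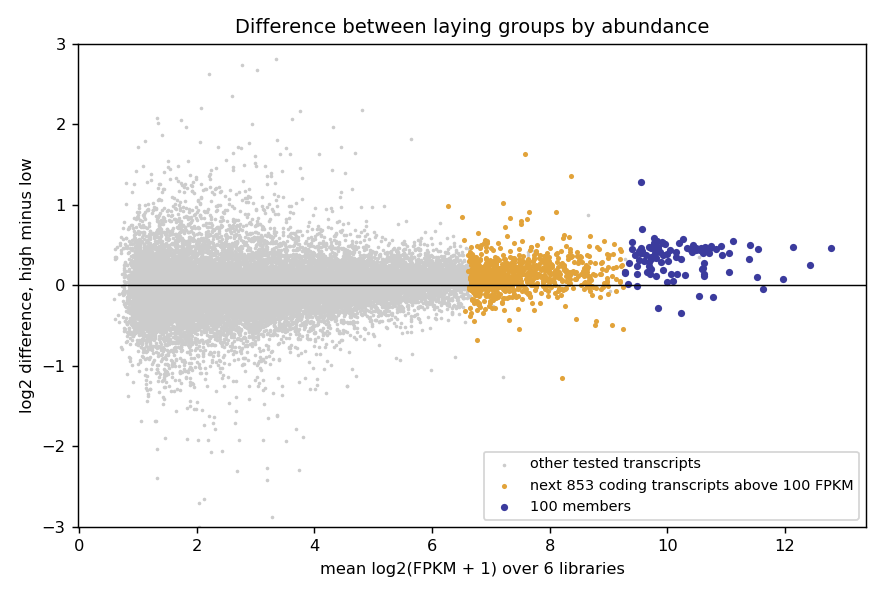
Log2 difference between high and low ovaries (vertical axis, high minus low) against the mean log2(FPKM + 1) over 6 libraries (horizontal axis), for the 100 members, the next 853 coding transcripts above 100 FPKM and the other tested transcripts (1 point each; 5 of the tested transcripts lie beyond the plotted range of 3). Of the members 94 lie above the line at 0, with a median of 0.40.

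In 16 members all high libraries lay above all low libraries, against 3.72% of tested transcripts, and in 0 members the order was the opposite, against 4.83%. Among the next 853 coding transcripts above 100 FPKM the shares were 9.14% and, for the opposite order, 0.469%. The 5 members with the smallest p were among the 16. XM_005029455.2 was at 1134, 1219 and 1159 FPKM in high 1 to 3, against 747, 745 and 952 FPKM in low 1 to 3, a ratio of means of 1.44. XM_005018889.2 was at 1014, 1161 and 1043 FPKM in high 1 to 3, against 602, 670 and 900.2 FPKM in low 1 to 3. XM_005015528.2 was at 995, 1139 and 1009 FPKM in high 1 to 3, against 664, 681 and 840 FPKM in low 1 to 3. Here too low 3 was the low library nearest to the high ones.

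XM_013103737.1 was at 866, 1107 and 1356 FPKM in high 1 to 3, against 699, 728 and 813 FPKM in low 1 to 3. XM_005009707.2 was at 949, 1054 and 979 FPKM in high 1 to 3, against 720, 653 and 793 FPKM in low 1 to 3. The other member at an unadjusted limma p under 0.05, XM_005023495.1, was at 812, 1119 and 983 FPKM in high 1 to 3, against 441, 520.1 and 903 FPKM in low 1 to 3, so its groups overlapped through low 3. Over the 5 that did not overlap the log2 difference ran from 0.46 (XM_005009707.2, SE 0.18) to 0.59 (XM_005018889.2, SE 0.22), each with a limma adjusted p of 0.9998. Without low 3 it ran from 0.53 (XM_005009707.2) to 0.75 (XM_005018889.2). The groups did not overlap in these 5, but the 5 were taken for their small p, so this is no separate support. Limma's test over all transcripts did not call them.

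The 6 members with a log2 difference below 0 were XM_005020122.2, ACTA2, XM_005031167.2, XM_005018404.2, XM_013109143.1 and XM_013091969.1. XM_005018404.2 had the largest of these differences, -0.34 (95% interval -1.39 to 0.71). The difference stayed below 0 with any 1 library left out, but its size rested on single libraries. It was -0.017 without low 2, -0.15 without high 3, -0.18 without low 3, -0.25 without high 1, -0.61 without high 2 and -0.82 without low 1. This transcript was at 948, 1566 and 825 FPKM in high 1 to 3, against 693, 2110 and 1693 FPKM in low 1 to 3. XM_013109143.1 was at 710, 970 and 851 FPKM in high 1 to 3, against 653, 1785 and 895 FPKM in low 1 to 3, so the difference of -0.28 rests on low 2 and was 0.13 without it. XM_013091969.1 was at 689, 1013 and 521 FPKM in high 1 to 3, against 421, 1047 and 849 FPKM in low 1 to 3, a difference of -0.014 that was 0.10 without low 3. In all of these 6 but XM_005031167.2, low 1 was the lowest library and low 2 stood above every high library.

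The commonest order of the libraries among the members set low 1 and low 2 below every high library, with low 3 not below them. It was found in 59 members, against 5.93% of tested transcripts, and in 27 of the 59 low 3 was also above every high library, against 2.86%. Among the next 853 coding transcripts above 100 FPKM the shares were 12.2% and 5.39%. Those 59 summed to 98685, 107713 and 93654 FPKM in high 1 to 3, against 61392, 64281 and 108192 FPKM in low 1 to 3. That low 1 and low 2 are below the high libraries in this sum was set by how the 59 were taken. The other 41 summed to 55663, 56291 and 60606 FPKM in high 1 to 3, against 47181, 50422 and 52573 FPKM in low 1 to 3. Low 1 was the lowest library in 56 members, low 2 in 31 and low 3 in 10, while low 3 was the highest in 32 and high 2 in 39. Among all tested transcripts low 1 was the lowest in 20.2%, low 2 in 11.9% and low 3 in 29.2%. Low 3 was the highest in 20.3% of them and high 2 in 10.8%, while low 1 was most often the highest, in 26.9%.

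**Figure D4:**
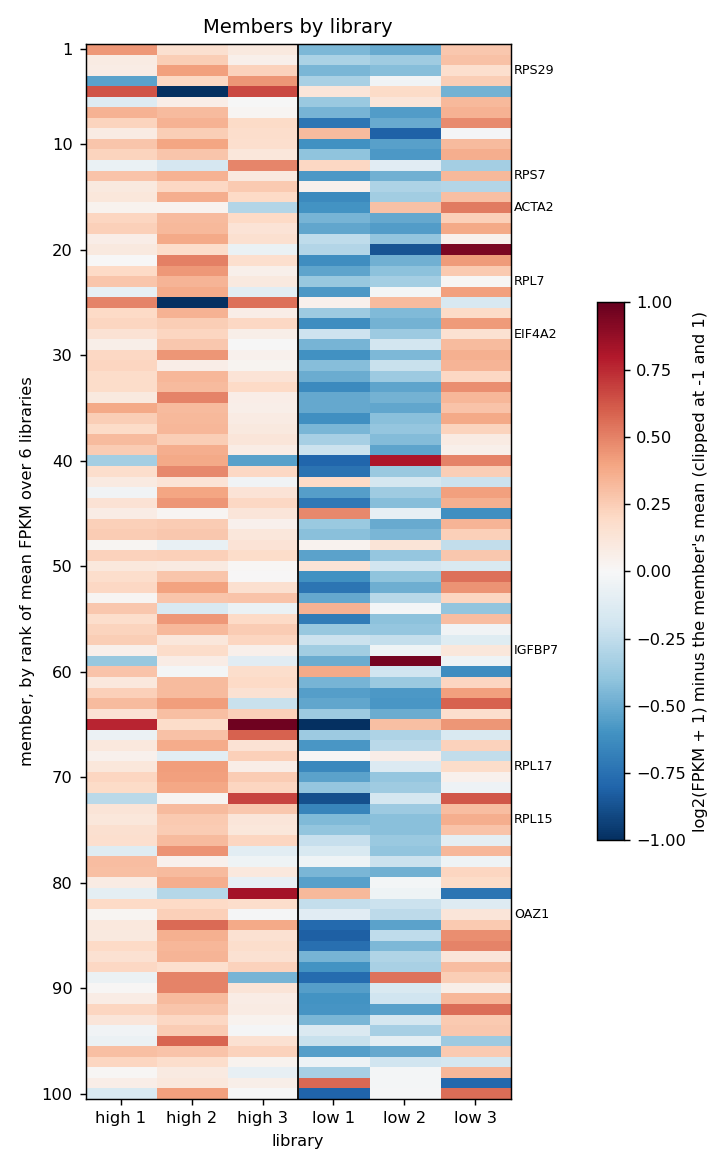
Log2(FPKM + 1) of each member minus its own mean over 6 libraries (colour, clipped at -1 and 1), with members from rank 1 at the top to rank 100 at the bottom and libraries from high 1 to low 3; 9 symbols stand at their ranks. Low 1 and low 2 are below the mean for most members and low 3 is above it, with median deviations of -0.46, -0.36 and 0.25 in low 1 to 3, while those of high 1 to 3 are 0.15, 0.31 and 0.13.

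Many members kept a steadier ratio to the named ribosomal proteins than most transcripts outside the list did. The sum of the 5 was 10865, 12605 and 10839 FPKM in high 1 to 3, against 6950, 7399 and 11135 FPKM in low 1 to 3. The ratio of each other member to that sum was followed across the 6 libraries. Its SD on the log2 scale was under 0.2 for 56 of the 95 other members (58.9%), for 5.63% of the next 853 coding transcripts and for 1.43% of tested transcripts with a value above 0 in every library. An SD under 0.1 was met by only 15 of the 95 (15.8%), against 0.469% and 0.112% in those other sets. All ratios share the same denominator and the same libraries, so they are a description of likeness and not of shared control.

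The steadiest was XM_005030825.2, whose ratio was 0.158, 0.151 and 0.153 in high 1 to 3, against 0.154, 0.159 and 0.156 in low 1 to 3. XM_005012574.2, XM_005029441.2 and XM_005031626.2 followed, with an SD of the log2 ratio of 0.039, 0.043 and 0.055. Some members kept step with each other more closely than with this sum, but pairs taken as the steadiest of many are close partly by that choice. Of 4950 pairs of members the steadiest was XM_005028765.2 with XM_005026122.2, whose ratio lay between 1.82 and 1.90 in all 6 libraries. XM_005030825.2 and XM_005012574.2 came next, with a ratio between 1.07 and 1.13. The SD of their log2 ratio was 0.028, hardly below the 0.029 of XM_005030825.2 to the sum.

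A small set of members ran the other way in the low group. Low 3 was the lowest of all libraries in 10 members, a set described after its values were seen. Low 3 was the lowest in 29.2% of all tested transcripts and in 41.5% of the next coding transcripts above 100 FPKM. Low 1 was the highest library in 7 members, against 26.9% of tested transcripts and 33.9% of those next coding transcripts. Both extremes were thus less frequent among the members than outside them. XM_013102943.1 was at 1211, 1163 and 1253 FPKM in high 1 to 3, against 1608, 1086 and 751 FPKM in low 1 to 3. XM_013095651.1 was at 653, 672 and 651 FPKM in high 1 to 3, against 931, 616 and 361 FPKM in low 1 to 3. XM_005020831.2 was at 1159, 937 and 1069 FPKM in high 1 to 3, against 1232, 829 and 616 FPKM in low 1 to 3. In these low 1 was the highest library and low 3 the lowest, whereas in each of the 5 named ribosomal members low 1 was the lowest library and low 3 the highest of the low group.

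Summed, the 10 were at 11030, 10497 and 12555 FPKM in high 1 to 3, against 12541, 10146 and 7943 FPKM in low 1 to 3. The summed markers of oocytes had the same order within the low group, but not within the high group. The 10 were taken because low 3 was their lowest library, so that part of their order was set in advance. The 7 of 31 listed oocyte and egg coat genes with a matched name summed to 994, 854 and 723 FPKM in high 1 to 3. In low 1 to 3 they summed to 1169, 867 and 431 FPKM. The order within the low group held in 5 of the 7, BTG4, MOS, PIWIL1, ZAR1L and ZP2, while GDF9 and TDRD5 were highest in low 2. None of the 7 was at 0 in any library. The egg coat gene ZP2 was at 467, 337 and 288 FPKM in high 1 to 3, against 517, 362 and 179 FPKM in low 1 to 3.

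The summed stromal markers had the opposite order in the low group. The 7 of 14 listed stromal genes with a matched name summed to 1210 to 1722 FPKM in high libraries and to 944 to 1676 FPKM in low libraries, with 944, 1303 and 1676 FPKM in low 1 to 3. The order held in 5 of the 7, while DCN was highest in low 2 and DPT lowest in low 2. This rise from low 1 to low 3 was not particular to stroma. In low 1 to 3, summed smooth muscle markers were at 1360, 2447 and 2901 FPKM and endothelial markers at 107, 142 and 151 FPKM. Of the endothelial markers only VWF and CDH5 rose in that order. TEK fell from low 1 to low 3, EMCN was lowest in low 3 and PECAM1 was highest in low 2. Leukocyte markers were at 235, 500 and 553 FPKM in low 1 to 3, though JCHAIN and RGS1 were highest in low 2. Red blood cell and thrombocyte markers were at 59.6, 63.3 and 121 FPKM in low 1 to 3. Nearly all of that sum was MMRN1, at 55.4, 59.5 and 119 FPKM in low 1 to 3. TUBB1 fell instead, at 4.05, 3.02 and 2.17 FPKM. Surface epithelium and oviduct markers were at 47.5, 144 and 190 FPKM in low 1 to 3. Most of this was LYZ, at 36.3, 136 and 185 FPKM in low 1 to 3. ESRP1, the only other matched gene of this list, fell from low 1 to low 3. These lists had 2 to 9 matched genes. Leukocyte markers, 9 of 22 matched, summed to 517 to 1727 FPKM in high libraries and to 235 to 553 FPKM in low libraries. JCHAIN, the joining chain of antibodies, gave 1348 FPKM of the sum in high 1, where it was at 388 and 282 FPKM in high 2 and high 3 and at 95.5 to 311 FPKM in low libraries. None of these stromal or leukocyte genes was at 0 in any library. Genes of granulosa and theca cells, 8 of 37 matched, summed to 244 to 291 FPKM in high libraries and to 196 to 331 FPKM in low libraries, again highest in low 1 and lowest in low 3. Of the 6 tested, CYP19A1, GJA1, IGFBP2 and SRD5A1 held that order, while FSHR was highest in low 2 and FST lowest in low 2. The part that these cell types have in the members' levels was not tested.

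The members were far more alike among the high ovaries than among the low ones, and without low 3 the contrast was not seen. The SD of log2(FPKM + 1) over 3 libraries had a median of 0.128 in high and 0.420 in low ovaries, and it was larger in low ovaries for 89 members. As a coefficient of variation the median was 8.90% in high and 30.3% in low ovaries. Without low 3 the low median was 0.126, from 2 libraries. Low 3 stood apart from low 1 and low 2 for most members, so leaving it out narrows the low spread by the choice of library. Without low 2 the low median was larger than with all 3 low libraries. The next 853 coding transcripts had medians of 0.136 in high and 0.281 in low ovaries, and the medians over everything tested were 0.219 in high and 0.335 in low ovaries. The spread was larger in low ovaries for 77.7% of those 853 and for 67.7% of all tested transcripts. With each library scaled by the members' own sum, which removes changes in their total, the medians were 0.0981 in high and 0.211 in low ovaries.

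**Figure D5:**
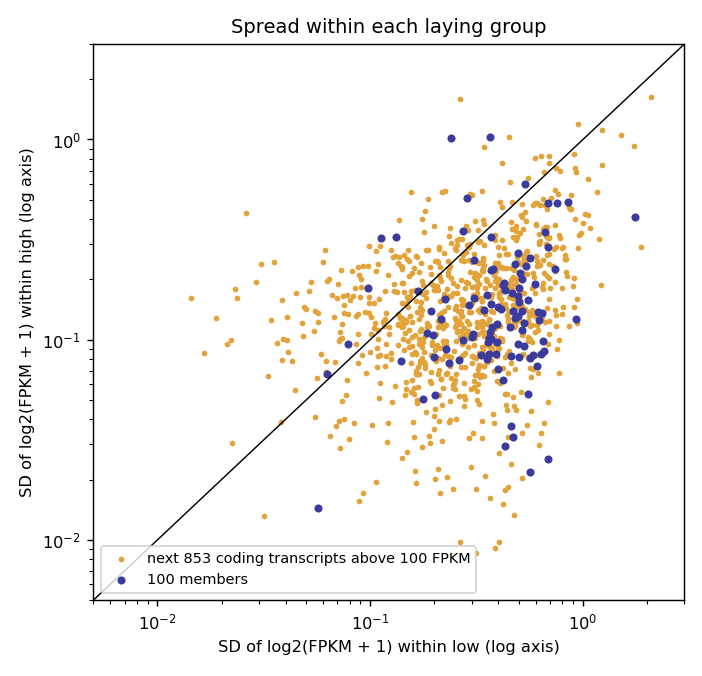
SD of log2(FPKM + 1) over the 3 high libraries (vertical, log axis) against that over the 3 low libraries (horizontal, log axis) for the 100 members and the next 853 coding transcripts above 100 FPKM, 1 of which lies outside the plotted range; the line marks equal SD. Of the members 89 lie below the line, where the low SD is the larger.

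The steadiest members within a group were XM_005010154.1 and XM_013107937.1. XM_005010154.1 was at 917, 918 and 902 FPKM in high 1 to 3, against 678, 690 and 731 FPKM in low 1 to 3, with the smallest SD on the log2 scale in each group, 0.0145 in high and 0.0569 in low ovaries. Its groups did not overlap, and the log2 difference was 0.38 (95% interval -0.011 to 0.78). XM_013107937.1 was at 1784, 1826 and 1775 FPKM in high 1 to 3, against 999.7, 1110 and 2062 FPKM in low 1 to 3, so a coefficient of variation of 1.51% in high ovaries stood beside one of 42.0% in low ovaries. The third steadiest in high ovaries was XM_013095651.1, whose values are given above.

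XM_005011507.2 and XM_013094951.1 were steady in both groups and did not overlap between them. XM_005011507.2 was at 1151, 1052 and 1127 FPKM in high 1 to 3, against 840, 824 and 896 FPKM in low 1 to 3, a log2 difference of 0.38 (SE 0.18). XM_013094951.1 was at 756, 735 and 666 FPKM in high 1 to 3, against 628, 567 and 578 FPKM in low 1 to 3, a log2 difference of 0.28 (SE 0.17) that turned to -0.039 under scaling by the members' sum. In these members and in XM_005010154.1 low 3 was close to low 1 and low 2.

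The most variable member was XM_013107055.1, which ranked far outside the first 100 in 1 library. It was at 1266, 850 and 1469 FPKM in high 1 to 3, against 117, 921 and 1013 FPKM in low 1 to 3, a 12.5-fold span. Its rank among coding transcripts was 838 in low 1 and 34 at best. The log2 difference of 1.28 was the largest of all members and had the largest error (SE 0.77), and it was 0.27 without low 1 and 1.82 without low 3.

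Other variable members differed in which library stood out. XM_005010931.2 was at 1695, 1801 and 1513 FPKM in high 1 to 3, against 1288, 868 and 3038 FPKM in low 1 to 3, with low 3 alone above the high libraries. Its log2 difference was 0.15, or 0.65 without low 3, while the mean was lower in high, at 1669 ± 145 FPKM in high and 1731 ± 1151 FPKM in low ovaries (SD, n = 3 each). XM_005027728.2 was at 685, 843 and 1319 FPKM in high 1 to 3, against 449, 734 and 1276 FPKM in low 1 to 3, with high 3 and low 3 far above the others. XM_013103175.1 was at 730, 641 and 1390 FPKM in high 1 to 3, against 975, 759 and 470 FPKM in low 1 to 3, with high 3 alone at the top.

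No matched gene of the respiratory chain or of energy metabolism was a member. Among extracellular matrix genes this was set by the rule, since SPARC, a matrix protein that binds collagen, averaged 1691 ± 160 FPKM in high and 1364 ± 415 FPKM in low ovaries (SD, n = 3 each) and is the left-out transcript that would have ranked among the 100. Of 82 listed genes of the respiratory chain and ATP synthase 6 were tested, 5 with a log2 difference above 0 and 0 called, the most abundant being COX7A2 of cytochrome oxidase at 649 ± 34.9 FPKM in high and 470 ± 159 FPKM in low ovaries (SD, n = 3 each). Of 42 listed enzymes of energy metabolism 3 were tested, 1 above 0, 2 below and 0 called. Of 59 listed extracellular matrix genes 13 were tested, 10 above 0, 3 below and 0 called.

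The threshold of the list fell among closely spaced transcripts. The last 3 members, XM_005017131.2, XM_013095651.1 and XM_005030447.2, averaged 649.9, 647 and 647 FPKM over the 6 libraries. The first 3 outside, XM_013108832.1, XM_005028777.2 and XM_005009376.2, averaged 634, 627 and 622 FPKM.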

How the data were processed

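The 6 tables, 1 for each library, were used. Per the labels' protocols, RNA was extracted with Trizol and 4 µg of total RNA went into a stranded TruSeq mRNA kit. Per the submitters' processing notes, Bowtie2 2.0.6 and TopHat2 2.0.9 were used; the quantifier, build and annotation were stated in no source used here. The deposited values name no unit and were read as FPKM, because they are fractional, never negative and sum to different totals. Read depth is unknown, so no interval from counts is given. Symbols came from a RefSeq table of the Pekin duck assembly from IASCAAS, through the accessions it lists: 5 transcripts matched with their version number and 4636 (11.1%) without it, of which 3452 had a symbol.

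Values were taken as log2(FPKM + 1), and fold changes on this scale understate those of low transcripts. The 19790 transcripts that reached 1 FPKM in 3 or more libraries were tested with limma-trend (limma 3.58.1, R 4.3.3), group as the only term, two-sided, with Benjamini-Hochberg adjustment over all of them and a threshold of 0.05. The fit was tested on simulated data. Between libraries at most 0.00271% of values above 0 were identical, so none was a copy. Shares, order and spread carry no test. The members, gene lists and tests were chosen with earlier results of these data known. The values of 1 member are not reported here. Otherwise named with all values were the 10 leaders, the members with a symbol, the 5 with the smallest p in each direction, and the 5 most and 3 least variable in either group. Alternatives covered pseudocount, filter, scaling, array weights and each library left out; scaling by the members' sum was added after the data were seen.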

Additional observations from a re-analysis of the deposited data

How the results depend on the processing

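With 3 libraries a group and no read counts, the error rests on the spread between replicates. Limma draws that spread toward a trend fitted over all tested transcripts. For a very steady member the error is then larger than its own libraries alone would give. No paired analysis was possible because the labels give no number that the groups share: numbers 1 to 3 follow the order of deposit within each group and only name the libraries. Limma called 1 of all tested transcripts, 0 without a filter on low values, 2292 with array weights and 1 to 3 with a library left out. Of the members it called 0 in every other setting and 58 with array weights, 57 higher and 1 lower in high ovaries, against 11.6% of all tested transcripts. The members' share of summed FPKM averaged 26.0% in high and 22.7% in low ovaries when coding transcripts alone were summed, 17.4% in high and 15.2% in low for 50 members, and 32.4% in high and 29.1% in low for 200 members. With a library left out it ran from 24.5% to 25.2% in high and from 19.3% to 23.4% in low ovaries, and the difference from 1.40 to 5.63 percentage points. The median SD of the members in low ovaries ran from 0.126 (without low 3) to 0.523 (without low 2).

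Of the 100 members 94 had a log2 difference above 0, against 70 under quantile normalization, 63 under scaling by the members' sum, 90 on the TPM scale and 91 with array weights, and 19 changed sign with a library left out. Among the members named by the rule it turned under quantile normalization for XM_005009561.2 (-0.18), XM_005031463.2 (-0.091), XM_005010931.2 (-0.19), EIF4A2 (-0.080), IGFBP7 (-0.16), OAZ1 (-0.16) and XM_013095651.1 (-0.065). Scaling by the members' sum sets their total equal in all libraries, so signs that turn under it are partly set by construction. Under that scaling, where the median of all tested transcripts moved to -0.28, the log2 difference of members named by the rule turned for XM_005009711.2 (-0.068), XM_005009561.2 (-0.24), XM_005031463.2 (-0.21), XM_005010931.2 (-0.17), EIF4A2 (-0.043), IGFBP7 (-0.13), XM_005027728.2 (-0.035), XM_013103175.1 (-0.021), OAZ1 (-0.16), XM_013094951.1 (-0.039) and XM_013095651.1 (-0.17). It turned on the TPM scale for XM_005009561.2 (-0.025) and with array weights for XM_005031463.2 (-0.30). With a library left out it ran from -0.12 to 0.36 for XM_005009561.2, -0.19 to 0.70 for XM_005031463.2, -0.24 to 0.10 for XM_005020122.2, -0.48 to 0.078 for ACTA2, -0.25 to 0.65 for XM_005010931.2, -0.44 to 0.46 for XM_005031167.2, -0.59 to 0.13 for XM_013109143.1, -0.083 to 0.67 for XM_005027728.2, -0.041 to 0.54 for XM_013103175.1 and -0.20 to 0.48 for XM_013095651.1. The cause was not tested.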
